A study of Mus musculus with 3 samples.

Results

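The glycolytic enzyme genes Ldha, Pgk1, Aldoa, Eno1, Gapdh, Tpi1, Pkm2, Gpi1, Hk2 and Pfkl were followed in mouse otic placodal ectoderm of 2 genotypes. Every non-control probe whose gene name in the scanner files is exactly one of these names was taken, and Pkm is written Pkm2 there. This gave 14 of the 41174 non-control probes, for 9 of the 10 genes, since no probe carries the name Gapdh. The double null placodes were Fgf3-/-;Fgf10-/-, homozygous for null alleles of both fibroblast growth factor genes, and the double heterozygote placodes were Fgf3+/-;Fgf10+/-. Both genotypes thus carried null alleles of both genes. Placodes were microdissected from embryos with 4 to 8 somites, given no treatment, and pooled by 10. Each of 3 Agilent 2-colour arrays compared 1 pool of each genotype, with the double null always in Cy5 and the double heterozygote always in Cy3. Dye and genotype therefore cannot be told apart for any probe. Every ratio below is double null over double heterozygote.

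Glycolysis breaks glucose down to pyruvate in the cytoplasm and yields ATP and NADH on the way. Hexokinase, glucose phosphate isomerase and phosphofructokinase prepare the sugar, aldolase and triose phosphate isomerase split it into triose phosphates, and the later enzymes harvest energy from those. Lactate dehydrogenase turns pyruvate into lactate and regenerates the NAD+ that the pathway uses. Rapidly dividing embryonic tissues are known for high glycolytic activity, and several of these genes are classic targets of the hypoxia-inducible factor HIF-1.

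The probes decide what is measured, so those behind the differences between probes of the same gene are shown first. All are 60 bases long, positions are those of the scanner files on the mouse build mm7, and exon or UTR placement was not analysed here because no annotation of that build was used. Both Ldha probes and the single Eno1 probe follow. Whole sequences are given for the Eno1 probe and the second Ldha probe, whose listed spans in the genome, 226 and 930 bases, are longer than the probe, and the first 30 bases are given for the other Ldha probe.
Ldha A_51_P364140, chr7:43031720-43031779, plus strand: tatatgtgtctgtagtgtgcattgcaatat
Ldha A_51_P364146, chr7:43030257-43031186, plus strand: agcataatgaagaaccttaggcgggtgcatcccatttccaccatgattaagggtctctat
Eno1 A_52_P349939, chr4:149233567-149233792, plus strand: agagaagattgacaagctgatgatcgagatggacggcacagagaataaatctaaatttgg

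The 2 Aldoa probes share a run of 27 bases on one side of a 3-base difference, and the 2 Pgk1 probes overlap by 38 bases, so neither pair is independent. The lines that follow are parts of the probes, while the positions are those listed for whole probes. They give bases 15 to 44 of Aldoa A_52_P98387, 33 to 59 of Aldoa A_51_P216905 and 23 to 52 of Pgk1 A_51_P182828. Capitals in the first Aldoa line mark the bases that the other Aldoa probe lacks, and capitals in the Pgk1 line mark 30 of the bases that both Pgk1 probes hold.
Aldoa A_52_P98387, chr7:122891843-122891902, minus strand: tcactcttgctgcTGCcctcgtgtgcggtg
Aldoa A_51_P216905, chr7:122891645-122891659, minus strand: tcactcttgctgccctcgtgtgcggtg
Pgk1 A_51_P182828, chrX:101530787-101530846, plus strand: GTTCTTCAAGATCCCATTTAAATTCCTTAG

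The files list a span of only 15 bases for Aldoa A_51_P216905. The 2 Ldha probes, the 2 Gpi1 probes and the 2 Pkm2 probes share no such run. The single probes of Hk2, Pfkl and Tpi1 lie at chr6:82750613-82750672, chr10:77642785-77642844 and chr6:124837320-124837379, all on the minus strand.

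Before the ratios, the arrays were checked for what the labels say. The single Fgf3 probe had log2 ratios of -0.69, -0.06 and -0.69 (limma adjusted p = 0.121) and the Fgf10 probe 0.31, -0.11 and 0.23 (limma adjusted p = 0.386). How far each null allele reaches is not stated in the labels, so these probes do not check the genotypes. Of 15 tested probes for otic placode markers, 14 were below 0 and 3 passed the test, all lower in the double null (among them Hmx2 at -0.59 and Sox9 at -0.69). Summed processed intensities of these probes were 16319 to 19331 in the double null and 21788 to 29167 in the double heterozygote. Array medians of these probes were -0.45, -0.12 and -0.39, so array 2 stood apart, as it did for Fgf3. Of 11 heart and muscle marker probes, 3 passed as higher (Myod1 at 1.24 and both Tnni1 probes at 0.71 and 1.15), with summed intensities of 4052 to 7466 in the double null and 2639 to 5222 in the double heterozygote. The 6 red blood cell marker probes had array medians of 1.01, -0.36 and 1.59 and none passed. Their summed intensities were 412 to 7189 in the double null and 623 to 1205 in the double heterozygote. The part of these cell types in the glycolytic ratios was not tested, and in dissected tissue fewer cells of a type and less RNA per cell cannot be told apart. The 3 pools per genotype limit the precision. The limma p-values rest on the spread of the 3 array ratios, moderated by that of other probes, and this spread holds pool and array variation together.

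Probes for glycolytic transcripts gave some of the brightest signals on the arrays, although signals of different probes do not rank transcript levels. Of the 14 probes, 13 lay in the brightest 10% of tested probes and 11 in the brightest 2%. Those 11 were the probes of Ldha, Pgk1, Aldoa, Gpi1 (1 of 2), Tpi1, Pkm2 and Hk2, all above a mean log2 intensity of 15. Their raw spot intensities ran between 94848 and 382107 units in the double null channel and between 23289 and 65846 units in the double heterozygote channel. No spot of the 14 probes was saturated, and the brightest was at 64.4% of the saturation value. Raw Cy5 over Cy3 was 3.50 to 8.09 for these 11 probes before any normalization. The median spot of all had 227.5 to 242.9 units in the double null channel and 110 to 129 units in the double heterozygote channel, so the channels differed in general level. Raw intensities are given below as measured, and tests use normalized ratios.

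**Figure D1:**
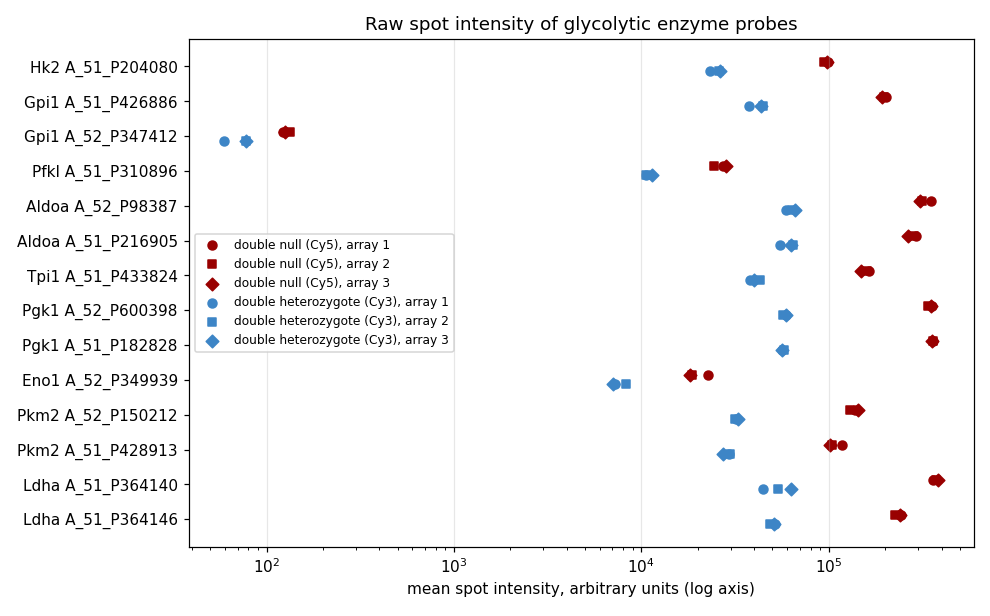
Mean raw spot intensity in arbitrary units (log axis) of each glycolytic enzyme probe, for the double null pools in Cy5 (red) and the double heterozygote pools in Cy3 (blue), with 1 symbol per array. Spots of a probe are averaged; Cy5 is above Cy3 at every probe, and only the second Gpi1 probe is dim.

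After normexp background correction and loess normalization, 8 of the 14 probes passed limma's test as higher in the double null and 0 as lower, against 1.51% of the 25504 probes tested passing in either direction (1.22% higher and 0.29% lower). The 8 were both probes of Ldha, Pgk1 and Aldoa and 1 of 2 probes of Gpi1 and of Pkm2. Hk2, Tpi1, Eno1 and Pfkl had no probe past the adjusted p of 0.05. With an intensity trend in limma's prior, which called 3.89% of all probes, 11 passed, all higher, among them Hk2 (limma adjusted p = 0.0101), Tpi1 (0.024) and Pkm2 A_51_P428913 (0.0451). With 1 probe per gene name Hk2 passed as well (limma adjusted p = 0.048, 2.42% of all called). The median over the 14 probes was 0.37 on the log2 scale, with array medians of 0.28, 0.36 and 0.38, against 0.01 over all probes tested. These calls depended on which array was left out. Without array 1, 7 of the 14 remained past the threshold (1.2% of all probes), without array 2, 5 (0.902%), and without array 3 only the 3 probes Ldha A_51_P364140 and both of Pgk1 (0.341%). Fitting the channels separately, with no replicate block for the array, left 5. Of all 384 calls 310 were higher, against 21 of 23 after subtracting the median of probes of like brightness and 15711 of 17231 with raw signals centred on the median. Ratios above 0 on every array were seen for 11 of the 14 probes and for 24.6% of all probes, and ratios below 0 on every array for 1, Pfkl, and for 19.2% of all.

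The background of 1.51% does not hold for probes this bright. Among other probes with a mean log2 intensity of 15 or more, 28.7% of 746 passed as higher, against 0.356% of 24744 dimmer ones. Of other probes between 16 and 17, 63.9% of 227 passed, with a median log2 ratio of 0.43. Above 17, 92.9% of 42 passed, with a median of 0.75. Of the 11 bright glycolytic probes, 8 passed (72.7%), and none of the 3 dimmer ones did. Hk2 and Pkm2 A_51_P428913 lay between 15 and 16, where 6.92% of 477 other probes passed, and neither passed. The other bright glycolytic probes lay above 16, and of these only Tpi1 did not pass.

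With the scanner's own processed signals, no glycolytic probe passed. The median over the 14 probes was 0.02, with 7 above 0 and 7 below, and limma called 0 of them and 0 of all 25504 probes (0%). At an unadjusted p under 0.05, 4 of the 14 passed, namely Ldha A_51_P364140 and both Pgk1 probes as higher and Pfkl as lower, while 8.47% of all probes passed as higher and 8.85% as lower. Of the 14, 5 were above 0 on every array (21.2% of all probes) and 3 below (22.1%). The processed intensities of the 2 genotypes did not overlap for 6 of the 14 probes. Those of the double null were the higher for 5 (7.21% of all probes) and the lower for 1, Pfkl (7.49%). The 5 were both Pgk1 probes, the first Ldha probe, Hk2 and the bright Gpi1 probe. All 5 were among the 11 bright probes, and the share without overlap among probes of like brightness was not computed. Processed ratios also climbed with brightness. Their median over other probes was -0.06 at a mean log2 intensity between 15 and 16, 0.07 between 16 and 17 and 0.25 above 17. A loess with a narrower span of 0.1 called 0 of the 14 and 0.122% of all probes.

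**Figure D2:**
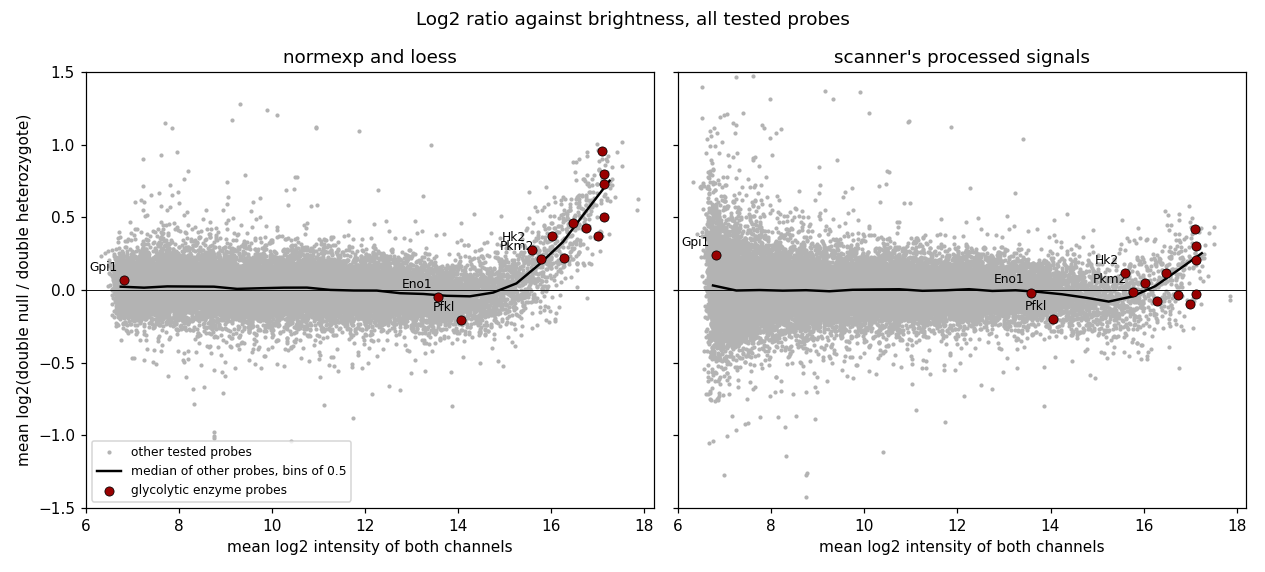
Mean log2 ratio of double null over double heterozygote against mean log2 intensity for all tested probes (grey), with the median of other probes in bins of 0.5 (line, bins of at least 20 probes) and the 14 glycolytic probes (red); the left panel uses normexp and loess, the right the scanner's processed signals. The line climbs above an intensity of 15 in the left panel, where the red points spread on both sides of it. It climbs there in the right panel too, but less. On the left 2 probes and on the right 7 lie beyond the axis limits of 1.5.

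Each probe was therefore set against the other probes within 0.25 log2 units of its brightness, 49 to 2680 of them. The median difference over the 14 probes was 0.02, and 7 of them stood above the 50th percentile of their neighbours and 7 below. Of the 14, 7 lay between the 25th and the 75th percentile of their neighbours, 3 above and 4 below. No probe passed limma's test on this scale, with adjusted p between 0.125 and 0.989, and 0.0902% of all probes did. A p that misses the threshold does not show that a level was equal in the 2 genotypes.

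**Figure D3:**
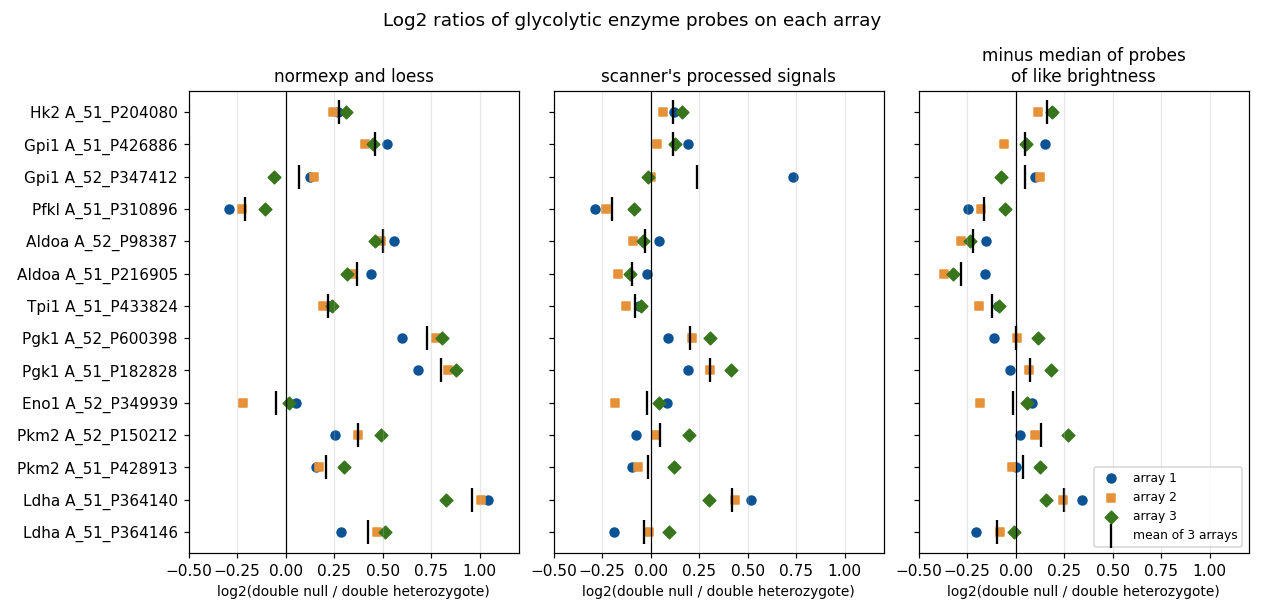
Log2 ratio of double null over double heterozygote on each of the 3 arrays (symbols) with their mean (bar) for each glycolytic probe in pathway order, after normexp and loess (left), from the scanner's processed signals (middle), and after subtracting the median of probes of like brightness (right). Most probes lie above 0 in the left panel and on both sides of 0 in the other panels.

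Of the enzymes that prepare the sugar, only 1 Gpi1 probe passed. Hk2, the inducible hexokinase that traps glucose as glucose 6-phosphate, had raw intensities of 98580.5, 94848 and 97653 units in the double null pools, against 23289, 26114 and 26185 units in the double heterozygote pools. Its log2 ratios were 0.27, 0.24 and 0.31 (mean 0.27 ± 0.05, SE, n = 3 arrays, limma adjusted p = 0.0574). The 3 arrays lay close together and the adjusted p was above the threshold. From the processed signals the ratios were 0.12, 0.06 and 0.16. Against probes of like brightness Hk2 was 0.19, 0.12 and 0.19 higher, at the 87.2nd percentile of 226 neighbours (limma adjusted p = 0.181).

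Gpi1, glucose phosphate isomerase, was measured by a probe printed on 10 spots and by a second, dim probe. The 10-spot probe A_51_P426886 had processed intensities of 57468, 57567 and 56413 units in the double null, against 50412, 56266 and 51726 units in the double heterozygote. The groups did not overlap, and the 2 genotypes differed least on array 2. Its log2 ratios were 0.52, 0.41 and 0.45 (mean 0.46 ± 0.05, SE, n = 3, limma adjusted p = 0.0115), with an SD between spots of the same array of 0.03 to 0.05. From processed signals they were 0.19, 0.03 and 0.13 and the test was not passed (limma adjusted p = 0.369). Against probes of like brightness its difference was 0.05, at the 58.1st percentile. The second probe, A_52_P347412, was well above background in the double null channel on 3 arrays and in the double heterozygote channel on 2, so it entered the test through the double null. Its ratios of 0.12, 0.14 and -0.06 differed in sign (mean 0.07, limma adjusted p = 0.558). The 2 Gpi1 probes thus gave different calls.

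Pfkl, the liver-type subunit of phosphofructokinase, which commits the sugar to glycolysis, was the only one of the 14 probes below 0 on every array after loess. It had processed intensities of 11114, 10663 and 11311 units in the double null, against 13544, 12506 and 12020 units in the double heterozygote, so the 2 groups did not overlap. The log2 ratios of Pfkl were -0.29, -0.23 and -0.10 (mean -0.21 ± 0.06, SE, n = 3, limma adjusted p = 0.131), and from processed signals -0.29, -0.23 and -0.09 (unadjusted p = 0.0283, adjusted p = 0.257). It stood at the 6.13th percentile of 587 probes of like brightness, 0.16 below their median, and the difference did not pass (limma adjusted p = 0.219).

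Aldoa, aldolase A, which cleaves fructose 1,6-bisphosphate, was the clearest case of a sign that changed with the processing. Probe A_52_P98387 had log2 ratios of 0.56, 0.49 and 0.46 (mean 0.50 ± 0.05, SE, n = 3, limma adjusted p = 0.00763), and probe A_51_P216905 had 0.44, 0.35 and 0.32 (mean 0.37 ± 0.05, limma adjusted p = 0.0271). With any 1 array left out the second no longer passed (limma adjusted p between 0.0794 and 0.122), and without array 3 neither did the first (limma adjusted p = 0.0632). Both passed as higher with all 3 arrays, and on each array the first exceeded the second, by 0.12 to 0.14. The processed intensities of A_51_P216905 were 80988, 82136 and 75519 units in the double null, against 82120, 92140 and 81251 units in the double heterozygote. The double null was the lower on all 3 arrays, and the processed ratio averaged -0.10 for this probe and -0.03 for the other. Against probes of like brightness both were lower on every array, by 0.28 and 0.22 on average, at the 10.96th percentile of 73 and the 14.3rd percentile of 49 neighbours, and neither passed (limma adjusted p = 0.125 and 0.134).

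Tpi1, triose phosphate isomerase, had log2 ratios of 0.22, 0.19 and 0.24 (mean 0.22 ± 0.05, SE, n = 3, limma adjusted p = 0.0922). Its processed intensities were 45423, 46701 and 44931 units in the double null, against 47311, 51076 and 46474 units in the double heterozygote. By these the double null was the lower on every array, with a mean ratio of -0.08. Tpi1 stood at the 23.4th percentile of 124 probes of like brightness, 0.12 below their median.

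Gapdh, the dehydrogenase that makes NADH, could not be followed by name. A probe named LOC14433 carries the gene ID of Gapdh (A_52_P589321, chr6:125188005-125188064) and was of moderate brightness. It had log2 ratios of -0.03, -0.10 and -0.15 (mean -0.09, limma adjusted p = 0.354). A bright probe named LOC380687 is listed over the same place (A_52_P479958, chr6:125188003-125188172). It had ratios of 0.48, 0.58 and 0.65 (mean 0.57 ± 0.06, SE, n = 3, limma adjusted p = 0.00643), and 0.07, 0.16 and 0.30 from processed signals. These 2 probes at 1 locus gave different results, and neither is counted among the 14. Gapdh-like copies are many in the mouse genome, so which transcripts the bright probe reads is uncertain.

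Pgk1, phosphoglycerate kinase, which makes the first ATP of the pathway and is X-linked, rose with both overlapping probes. The 10-spot probe A_51_P182828 had raw intensities of 360551, 359794 and 353597 units in the double null, against 56381, 57632 and 56556 units in the double heterozygote. Its log2 ratios were 0.68, 0.84 and 0.88 (mean 0.80 ± 0.06, SE, n = 3, 1.74-fold, limma adjusted p = 0.00324), with an SD between spots of 0.03 to 0.05. The other probe gave 0.60, 0.78 and 0.81 (mean 0.73, limma adjusted p = 0.00477). With processed signals Pgk1 stayed higher in the double null on all 3 arrays. Processed intensities of the 10-spot probe were 100652, 106669 and 100924 units in the double null and 88536, 86616 and 75952 units in the double heterozygote, which did not overlap, with a mean ratio of 0.30 (unadjusted p = 0.00728, limma adjusted p = 0.218). Among 49 probes of like brightness the loess means of the 2 Pgk1 probes stood at the 69.4th and 49.0th percentile. Both lay below the loess median of those probes on array 1, by 0.03 and 0.11, and above it on arrays 2 and 3. With processed signals those 49 probes had a median ratio of 0.24. On that scale the 2 Pgk1 probes stood at the 69.4th and 40.8th percentile, so the second lay below its neighbours' median.

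Eno1, enolase 1, had a single probe, of mean log2 intensity 13.6, and its ratios differed in sign between arrays. Its processed intensities were 7545, 6723 and 6678 units in the double null, against 7109, 7638 and 6482 units in the double heterozygote, and the groups overlapped. The log2 ratios were 0.05, -0.22 and 0.02 (mean -0.05 ± 0.07, SE, n = 3, limma adjusted p = 0.704), and array 2 was the low one.

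Pkm2, the muscle-type pyruvate kinase gene, which makes the last ATP, had 2 probes, at chr9:59705879-59705938 and chr9:59706027-59706086. Probe A_52_P150212 had log2 ratios of 0.25, 0.37 and 0.49 (mean 0.37 ± 0.06, SE, n = 3) and just passed (limma adjusted p = 0.046). Probe A_51_P428913 had 0.16, 0.17 and 0.30 (mean 0.21 ± 0.05, limma adjusted p = 0.12). With processed signals the arrays disagreed in sign for both, at -0.08, 0.03 and 0.20 for the first and -0.10, -0.07 and 0.12 for the second. Array 3 was the highest for both probes on both scales. The files do not say which splice form either probe reads, and without array 2 or array 3 neither passed.

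Ldha, lactate dehydrogenase A, had the highest ratio of the 14 with one probe and a middling one with the other. Probe A_51_P364140 had raw intensities of 359702, 372212 and 382107 units in the double null, against 44441, 53311 and 62559 units in the double heterozygote. Relative to their size, the 3 double heterozygote values were the more spread. Its log2 ratios were 1.04, 1.00 and 0.83 (mean 0.96 ± 0.06, SE, n = 3, 1.94-fold, limma adjusted p = 0.003). In processed units the double null had 112550.0, 122073 and 115308, against 78546, 90175 and 93571 in the double heterozygote, again without overlap. The processed ratios were 0.52, 0.44 and 0.30 (mean 0.42, unadjusted p = 0.002, limma adjusted p = 0.207). Ldha A_51_P364140 also stood highest of the 14 among probes of like brightness on the loess scale, above their median on every array (0.34, 0.25 and 0.16) and at the 96.3rd percentile of 54, although the difference did not pass (limma adjusted p = 0.13). On the processed scale Hk2 stood higher, at the 90.3rd percentile of its neighbours, against the 87.0th for this Ldha probe.

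Ldha A_51_P364146, the probe whose listed span is 930 bases, did not show the same. Its log2 ratios were 0.28, 0.47 and 0.51 (mean 0.42 ± 0.06, SE, n = 3, limma adjusted p = 0.0313), and without array 2 or array 3 it did not pass. Its processed intensities were 77385, 78005 and 75680 units in the double null, against 88079, 78430 and 70937 units in the double heterozygote, which overlapped, with ratios of -0.19, -0.01 and 0.09. It stood at the 29.0th percentile of 107 probes of like brightness. The first probe exceeded the second by 0.76, 0.53 and 0.31 on the 3 arrays (mean 0.53 ± 0.22, SD, n = 3), and by 0.45 on average with processed signals. The 2 arms of this comparison are probes of 1 gene on the same arrays, so the 1.94-fold value is not a result for all Ldha probes.

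**Figure D4:**
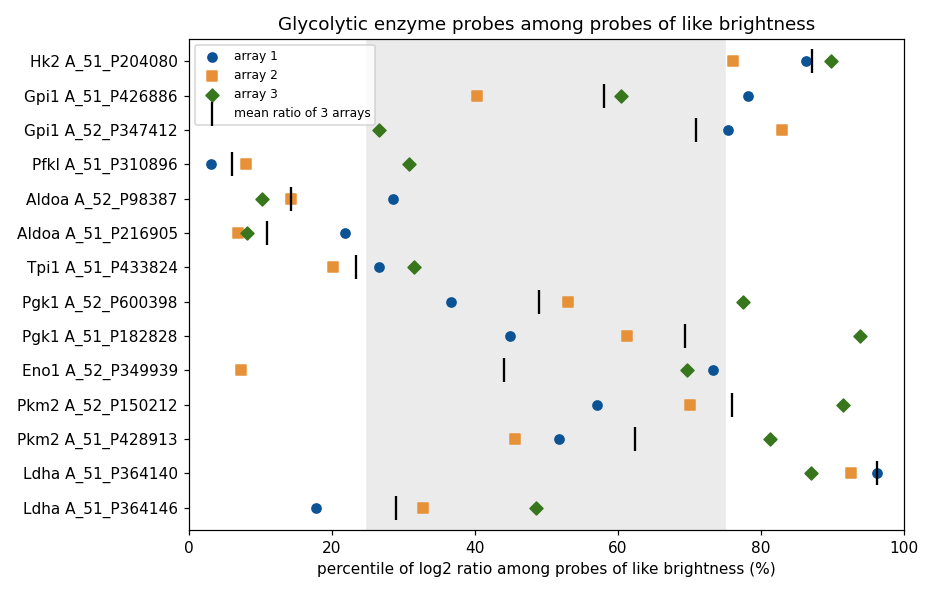
Percentile (%) of each glycolytic probe's log2 ratio among probes within 0.25 log2 units of its brightness, on each array (symbols) and for the mean ratio (bar); the grey band runs from 25 to 75. Ldha A_51_P364140 and Hk2 lie on the right on all 3 arrays, and both Aldoa probes lie at 28.6 or below.

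The bright signals were read at another scanner gain. Per the file headers, each array was scanned at high and at low gain and bright spots took the scaled low-gain value. Of the 32 spots of the 14 probes, 30 to 31 did so in the double null channel and 29 in the double heterozygote channel. Among other probes with a mean log2 intensity of 14 or more, those read at low gain in both channels on all arrays (587) had a median log2 ratio of 0.23 with loess and -0.03 with processed signals. Those read at low gain in Cy5 alone (871) had -0.02 and -0.03. Gain moves with brightness, and its part in the ratios was not tested.

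The rest of the pathway was read from 33 further genes of glucose and lactate transport, isoenzymes and regulators, of which 26 had 43 tested probes. Of these 43 probes 3 passed as higher and 0 as lower, beside 1.22% and 0.29% of all probes, and the median was -0.01. All 3 had a mean log2 intensity above 16. At that brightness 63.9% of 227 other probes between 16 and 17 and 92.9% of 42 above 17 passed, all as higher. Pgam1, phosphoglycerate mutase, rose by 0.56, 0.56 and 0.65 (mean 0.59 ± 0.05, SE, n = 3, limma adjusted p = 0.00477). Slc2a1, the widely expressed glucose transporter, averaged 0.44 (limma adjusted p = 0.0128) and Slc2a3, a high-affinity one, 0.36 (limma adjusted p = 0.0477). These 3 were also the brightest of the list, their processed ratios were 0.15, 0.04 and 0.05, and a second, dim Slc2a3 probe gave -0.06. Without array 3 none of the 43 passed.

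The 39 probes of the list with a mean log2 intensity up to 15 ran from -0.28 to 0.22 and none passed. The lowest were 2 probes of Slc16a1, a monocarboxylate transporter that carries lactate. The brighter, A_51_P397367, had processed intensities of 12755, 12661 and 14573 units in the double null, against 15312, 15969 and 17483 units in the double heterozygote. These did not overlap, and 7.49% of all probes were lower without overlap. Both Slc16a1 probes were lower on every array, at -0.27, -0.33 and -0.24 for A_51_P397367 and -0.26, -0.29 and -0.27 for A_51_P397363, and neither passed (limma adjusted p = 0.0565 and 0.0555). Both passed as lower with an intensity trend in the prior (limma adjusted p = 0.0106 and 0.0101). That setting called 3.89% of all probes, 357 of the 993 as lower. The brighter also passed with 1 probe per gene name (limma adjusted p = 0.048), where 2.42% of all were called. With processed signals the means were -0.29 and -0.28, and another, dim probe gave 0.14, 0.02 and -0.38. Slc16a3, the lactate exporter of glycolytic cells, averaged 0.10 and was not called. Of the isoenzymes, Aldoc averaged 0.22 with its brighter probe and -0.14 with the other, Ldhb 0.16 with 0.50 on array 3 alone, and the brighter Pfkp probe 0.19, none of them called.

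**Figure D5:**
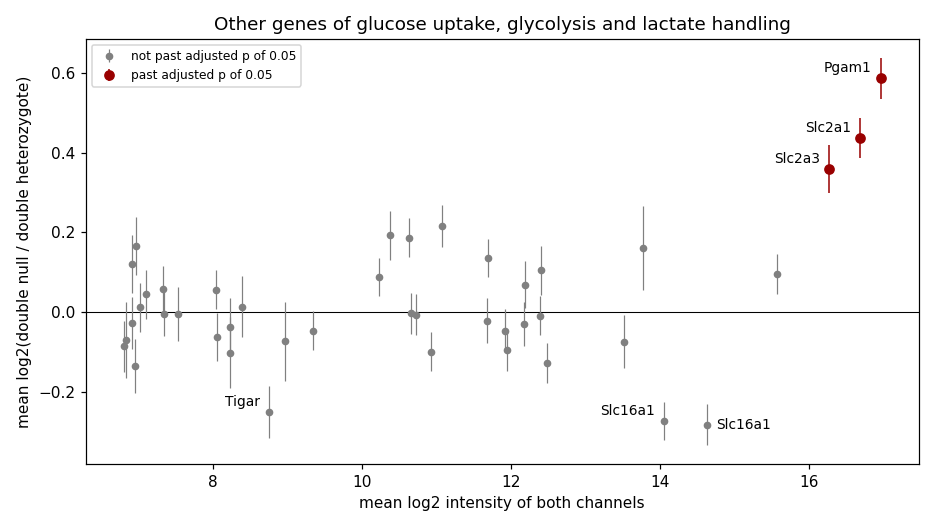
Mean log2 ratio of double null over double heterozygote (bars, SE over 3 arrays) against mean log2 intensity for the 43 tested probes of other genes of glucose uptake, glycolysis and lactate handling. The 3 probes past the test lie above an intensity of 16, and the 2 lowest are probes of Slc16a1.

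Neighbouring pathways gave too few calls to compare, with 1.51% of all probes passing. Of the tested probes, 0 of 2 passed in gluconeogenesis, 0 of 17 in the pentose phosphate pathway, 0 of 44 in pyruvate entry and the citric acid cycle, 0 of 23 in glycogen and hexose branches and 0 of 25 among Myc and mTOR regulators. Of 38 probes for hypoxia response genes outside glycolysis, 2 passed, Adm at 1.17 and the bright Mif at 0.45, with a median of 0.03. Adm encodes the vasodilator adrenomedullin, was of moderate brightness, and kept its value with processed signals (1.37), whereas Mif, a cytokine gene, had 0.07. A list of other abundant transcripts held 140 tested probes, 121 of them for ribosomal protein genes. Of the 140, 69 passed as higher and 0 as lower, all 69 among the 103 with a mean log2 intensity above 15. The 140 had a median of 0.35 and a processed median of 0.11, beside the 0.37 and 0.02 of the glycolytic probes.

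The promoters of the genes were read for the core of the HIF binding site, ACGTG, on both strands. RefSeq windows of 250 bases before each gene start (GRCm38.p6, 16 windows, all 10 genes) held it in 6 windows of 5 genes, Aldoa, Hk2, Ldha, Pgk1 and Pkm, or 37.5% of windows, against 16.6% of 32851 windows of all genes. Windows of alternative starts can overlap, as the 2 matching Aldoa windows do, and may then hold the same match. The related GCGTG was likewise in 6 of the 16 windows (37.5%), overlapping Eno1 windows among them, against 28.2% of all. Of the 2 Ldha windows, 1 held 5 matches and the other, chr7:46846832-46847081, held 0, and 4 or more occur in 0.5% of all windows. The motif CACGTG holds ACGTG on both strands and so counts as 2 matches. The highest ratios after loess were those of 1 of the 2 Ldha probes and of Pgk1. The other Ldha probe had 0.42, below Aldoa A_52_P98387 (0.50) and Gpi1 A_51_P426886 (0.46), and was 0.098 below probes of like brightness. Whether the ratios follow the motif was not tested. Against probes of like brightness Hk2 (0.16) stood above both Pgk1 probes (0.07 and 0.002). The matching window of Ldha and the window of Pgk1 are shown with every match in capitals.
Ldha, chr7:46845554-46845803, plus strand: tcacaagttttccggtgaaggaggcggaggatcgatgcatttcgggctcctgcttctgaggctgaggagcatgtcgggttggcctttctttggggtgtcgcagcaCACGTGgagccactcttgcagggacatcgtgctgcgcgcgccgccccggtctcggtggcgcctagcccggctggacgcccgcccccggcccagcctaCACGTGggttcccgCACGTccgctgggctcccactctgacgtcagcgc
Pgk1, chrX:106186850-106187099, plus strand: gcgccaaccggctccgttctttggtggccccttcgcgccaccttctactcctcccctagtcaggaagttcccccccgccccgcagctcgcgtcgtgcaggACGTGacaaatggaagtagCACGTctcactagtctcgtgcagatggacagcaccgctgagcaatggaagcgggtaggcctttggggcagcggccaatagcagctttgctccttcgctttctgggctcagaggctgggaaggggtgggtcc

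The matches describe letters in these windows, and binding was not measured.

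The probes most like the glycolytic ones over the 3 arrays were sought among 20760 named probes within their range of brightness, by the distance of the array ratios from the members' array medians of 0.28, 0.36 and 0.38. The nearest were Eef1d (0.28, 0.36 and 0.39), Nasp, Tmbim4, Rpl36a and Tmx4, at distances of 0.0071 to 0.0673 log2 units. Eef1d, Nasp and Rpl36a were as bright as the glycolytic probes and had processed ratios of 0.03, -0.03 and -0.06. Tmbim4 and Tmx4 were dim and had 0.41 and 0.42.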

How the data were processed

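RNA of 3 pools per genotype was linearly amplified with an Agilent 2-colour kit, per the labels. The authors extracted spots with Agilent Feature Extraction 9.5.1.1, per the submitters' processing notes. The deposited files hold mean and background intensity and a processed intensity per channel, background-subtracted and dye-normalized, and a log10 ratio, per the file headers. Log2 ratios stand in the series table that the authors deposited.

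Background was corrected by normexp (offset 50) and ratios normalized by loess within arrays (span 0.3, control spots at weight 0). Spots marked as outliers were dropped (0, 1 and 4 of the 32 glycolytic spots on arrays 1 to 3) and spots of a probe averaged. Probes were kept where every array showed them well above background in the same channel (25512), and 25504 measured on at least 2 arrays were tested with limma 3.58.1 in R 4.3.3, intercept only, Benjamini-Hochberg over all probes, threshold 0.05. Standard errors are moderated. The fit was checked on simulated data. Each probe was also compared with others within 0.25 log2 units of its mean intensity. Named genes were the members, every called gene of a list (up to 8), any gene of the further glycolysis list, and the 5 nearest in pattern. Members and lists were chosen with earlier results of these data known. Other backgrounds, normalizations, filters and left-out arrays were tried. The 3 arrays lay on 1 slide in 1 scan session. A gene of the marker lists that met the rule is not reported here by name.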

Additional observations from a re-analysis of the deposited data

How the results depend on the processing

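The number of glycolytic probes called (8 of 14) ranged from 3 to 7 when each array was left out. It was 5 with a normexp offset of 16 and 5 when the channels were fitted separately with no replicate block (185 probes called in all). It was 0 with a loess span of 0.1, after subtracting the median of probes of like brightness, with the processed signals and with the authors' series table. It was 11 with an intensity trend in the prior, 13 from raw signals with median centring and 14, 13 of them higher, from normexp with median centring. Calls over all probes (384) were 199 with the smaller offset, 31 with the narrower span, 23 against like brightness, 0 with the processed signals and the series table, 993 with an intensity trend in the prior, 17231 and 19474 with raw and normexp median centring, and 87 to 305 with an array left out. The further glycolysis list (3) had 0 with the narrower span, like brightness, processed signals and series table, 5 with the trend (3 higher and, for Slc16a1, 2 lower), 30 and 32 with the median centrings, and 0 to 3 with an array left out. It had 4 with 1 probe per gene name, 1 of them lower, where 411 of all 16980 probes were called. Higher calls were 310 of 384, 636 of 993 with the trend, 15711 of 17231 with raw and 17196 of 19474 with normexp median centring.

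The median of the 14 probes (0.37) was 0.018 with processed signals, 0.083 with the narrower span, 0.020 against like brightness, 1.19 and 1.31 with median centring, 0.35 to 0.38 with an array left out, and turned to -0.010 in the series table. Signs also turned for Aldoa A_51_P216905 (-0.097 processed, -0.097 series table, -0.021 narrower span, -0.28 like brightness), Aldoa A_52_P98387 (-0.030, -0.030 and -0.22 for processed, series table and like brightness) and Ldha A_51_P364146 (-0.034, -0.034 and -0.098). Of probes that had not been called, Tpi1 was -0.079 with processed signals and the series table, -0.056 with the narrower span and -0.12 against like brightness, and Pkm2 A_51_P428913 was -0.013 with processed signals and the series table. With raw and normexp median centring Eno1 was 0.44 and 0.56 and Pfkl 0.34 and 0.45, and the dim Gpi1 probe was -0.12 and -0.19 (-0.0072 in the series table). The cause of these changes was not tested. Filters on dim probes and kept outlier spots changed no count of glycolytic calls. The comparison with like brightness was repeated on the processed signals, a setting chosen after seeing the data, with a median difference of 0.01. Wider and narrower brightness windows gave 0.05 and 0.01.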
